A study of Homo sapiens with 24 samples.

Results

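The nuclear genes for subunits of 4 respiratory complexes were followed through the 8 groups of a sequencing experiment on SAS cells, a human line from an oral squamous carcinoma. The members are the protein-coding genes of the deposited count table whose symbols begin with NDUFA, NDUFB, NDUFC, NDUFS or NDUFV and a digit, with UQCR, with COX and a digit from 4 to 8, or with ATP5. The rule used names and no measured value, and it took 86 of the 58735 genes of the table: 37 of complex I, 9 of complex III, 19 of complex IV and 21 of complex V. NDUFA4 and NDUFA4L2 were counted with complex IV, where the NDUFA4 protein sits. The cells carried NRF2, the antioxidant transcription factor encoded by NFE2L2, as the E79Q form or as wild type (WT). Each genotype was irradiated after CB-839, given CB-839 alone, irradiated alone, or given neither (labelled control and called untreated here), with 3 libraries in each of the 8 groups. CB-839, which blocks glutaminase and with it the entry of glutamine carbon into the mitochondrial citrate cycle, was used at 0.1 µM for 24 h ahead of radiation. Radiation was 4 Gy of x-rays, and RNA was taken 24 h after radiation. The series text describes 12 irradiated samples in 4 groups, whereas the labels hold 24 samples in 8. Cells without the drug received a vehicle that is not named. For unirradiated cells the length of drug exposure and the time at which RNA was taken are unknown here. Comparisons of irradiated with unirradiated drug-treated cells may thus also differ in drug exposure. The labels do not say how the E79Q form was introduced, whether a line was 1 clone, or whether replicates were separate cultures. The p-values therefore measure the spread between these libraries, which may be technical. A preparation batch and radiation cannot be told apart.

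The respiratory chain lies in the inner mitochondrial membrane. Complex I takes electrons from NADH, complex III passes them from ubiquinol to cytochrome c, complex IV hands them to oxygen, and complex V, the ATP synthase, turns the proton gradient that the first of these build into ATP. The subunits come from nuclear and from mitochondrial genes. Those of nuclear origin often have promoters with sites for nuclear respiratory factor 1 (NRF1) and for the ETS factor GABP, also called nuclear respiratory factor 2. GABP is a different protein from the NRF2 of this experiment. The NRF2 studied here is held down by KEAP1, and substitutions at its residue E79 are known from tumours to weaken that hold. Its own sites are antioxidant response elements.

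Promoters in the RefSeq table (GRCh38.p14) were matched by gene ID or symbol for 68 of the 86 members, as windows of 250 bases before and 50 after the start of the gene. The 5 below are shown because these genes were lower with CB-839 in unirradiated E79Q cells under every processing tried. ATP5MC3 was lower likewise, but no promoter was matched to it. Only the 250 bases before the start are printed, 5′ to 3′ on the strand of the gene, with capitals for a match to the NRF1 letters GCGCANGCG or the GABP letters CCGGAAGT on either strand.
ATP5F1A: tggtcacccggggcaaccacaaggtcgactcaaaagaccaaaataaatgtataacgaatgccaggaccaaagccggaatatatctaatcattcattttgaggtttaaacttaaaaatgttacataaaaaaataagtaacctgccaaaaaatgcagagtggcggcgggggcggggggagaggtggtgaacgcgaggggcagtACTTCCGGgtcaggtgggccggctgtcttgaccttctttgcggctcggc
UQCRFS1: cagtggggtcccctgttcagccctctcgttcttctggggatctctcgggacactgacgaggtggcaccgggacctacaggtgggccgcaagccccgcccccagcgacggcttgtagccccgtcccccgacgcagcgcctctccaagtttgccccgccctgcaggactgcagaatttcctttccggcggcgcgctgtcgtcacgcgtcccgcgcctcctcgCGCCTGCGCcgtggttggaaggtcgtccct
ATP5F1C: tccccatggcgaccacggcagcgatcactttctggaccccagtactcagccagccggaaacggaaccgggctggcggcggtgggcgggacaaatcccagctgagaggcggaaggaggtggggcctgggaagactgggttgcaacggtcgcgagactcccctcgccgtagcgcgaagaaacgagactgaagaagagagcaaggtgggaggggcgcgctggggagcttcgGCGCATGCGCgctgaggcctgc
ATP5PB: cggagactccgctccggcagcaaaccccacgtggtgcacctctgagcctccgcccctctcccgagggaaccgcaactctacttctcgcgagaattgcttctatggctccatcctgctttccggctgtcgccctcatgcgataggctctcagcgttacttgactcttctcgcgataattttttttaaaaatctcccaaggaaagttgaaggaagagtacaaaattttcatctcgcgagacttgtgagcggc
NDUFS3: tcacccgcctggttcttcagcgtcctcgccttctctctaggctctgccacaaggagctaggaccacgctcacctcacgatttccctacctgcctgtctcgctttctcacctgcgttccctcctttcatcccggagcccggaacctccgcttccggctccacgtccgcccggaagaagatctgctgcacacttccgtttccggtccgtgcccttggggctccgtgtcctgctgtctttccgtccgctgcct
These lie at chr18:46098297-46098546 on the minus strand, chr19:29213152-29213401 on the minus strand, chr10:7787927-7788176 on the plus strand, chr1:111449214-111449463 on the plus strand and chr11:47578824-47579073 on the plus strand, in the order printed. The start used is the RefSeq one. In each it lies inside the gene by the deposited coordinates, so the printed bases overlap that annotation in whole or in part. ATP5F1A held 1 match to the GABP letters, UQCRFS1 held 1 match to the NRF1 letters and ATP5F1C 2 that overlap, and neither motif was in the windows of ATP5PB or NDUFS3. Over the full windows of 300 bases and both strands, the NRF1 letters were in 18 of the 68 members (26.5%), against 7.52% of all 35116 promoters in the table. The GABP letters were in 10 members (14.7%), against 4.14% of all promoters. An antioxidant response element, searched as TGACNNNGC, was in 11 members (16.2%), against 13.3% of all promoters. By complex, NRF1 letters were found in 8 of 32 promoters of complex I, 4 of 7 of complex III, 2 of 15 of complex IV and 4 of 14 of complex V. The promoters of the whole table were not limited to genes expressed in these cells, nor matched to the members for base composition. A match is a string of letters and not a measured binding site.

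Between 14285084 and 23640197 reads per library fell on genes, and the members held 0.73% to 0.851% of them. All 10 markers listed for squamous epithelium, the origin of the line, passed the filter on low counts, and they summed to 2006 to 3556 CPM (counts scaled to the size and composition of each library) in a library. All 10 were lower in untreated E79Q than in untreated WT cells, and their part in the differences of the members between genotypes was not tested. Of 8 markers of leukocytes, endothelium and fibroblasts, 2 passed the filter, and the 8 together summed to 0.2814 to 4.702 CPM. Mitochondrial genes held 1.93% to 3.55% of all counts. The deviation of genes from their group mean was correlated with GC content in some libraries. Taking the strongest correlation of either sign in each group, the 4 strongest were with both treatments library 2 of E79Q cells (r = 0.488 across genes) and library 1 of WT cells (0.263), with the drug alone library 3 of WT cells (0.183), and without treatment library 1 of E79Q cells (0.167), and these are called the 4 libraries that follow GC. Deviations of 3 libraries from their own mean sum to 0, and others of these groups had negative values, down to -0.385 in library 1 and -0.169 in library 3 of E79Q cells with both treatments and -0.169 in library 2 of such WT cells. In library 2 of E79Q cells with both treatments 53 of the 77 members that passed the filter lay above their group mean. The 3 libraries of unirradiated WT cells with CB-839 were also spread, with 5, 38 and 73 of the 77 members above the group mean. Counts of members that moved by over 1.5 times without 1 library are given with and without it.

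Most subunit genes were highly expressed, and their levels differed by gene far more than by group. Of the 86 members, 77 passed the filter: 36 of 37 in complex I, 9 of 9 in complex III, 13 of 19 in complex IV and 19 of 21 in complex V. Per kilobase of main transcript, the catalytic subunit beta of the ATP synthase head, ATP5F1B, was highest at 524 CPM per kb. It was followed by the complex I subunit NDUFB9 at 413, the ATP synthase membrane subunit ATP5MF at 356, the complex III hinge protein UQCRH at 294 and the first subunit of complex IV that the nucleus encodes, COX4I1, at 261 CPM per kb. The median of the 77 was 47.8 CPM per kb. The 9 others were isoforms of other tissues or read-through genes. COX6B2 had 117 reads over all 24 libraries, COX7A1 had 39 and the read-through ATP5MF-PTCD1 had 24, while ATP5MGL, COX8C and COX4I2 had 6 or fewer. COX7B2, COX6A2 and the read-through NDUFC2-KCTD14 had 0 reads in every library.

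Where an isoform pair exists, the common form carried the counts. COX4I1 ranged over the 24 libraries from 192 to 295 CPM, COX6A1 from 48.4 to 73.4, COX6B1 from 62.6 to 89.8, COX7B from 34.2 to 47.3 and COX8A from 68.6 to 127 CPM. COX7A2 ranged from 63.5 to 88.2 CPM and its relative COX7A2L, which helps to join complexes III and IV, from 74.4 to 102 CPM. Their restricted partners COX4I2, COX6A2, COX6B2, COX7A1, COX7B2 and COX8C were all below the filter. UQCRH ranged from 152 to 211 CPM and its near-identical intronless relative UQCRHL from 0.940 to 2.51 CPM, where reads may have been split between the 2 copies.

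Some members share their annotation with other genes. The main transcript had bases in common with another gene, on either strand, for more than 10% of its length in 29 of the 77. In 11 it was more than 40%, and these had a median of 23.1 CPM per kb, against 69.2 CPM per kb for the 48 that shared 10% or less. The 5 members with the lowest levels per kb were of both kinds. Accessory subunit NDUFA7 (0.701 CPM per kb), core subunit NDUFV2 (0.808) and accessory subunit NDUFA13 (1.44) share 78.7%, 82.9% and 44.1%, whereas UQCRHL (0.757) and NDUFA4L2 (0.776) share 0.0% and 2.6%. ATP5MF, among the highest members at 356 CPM per kb, shares 46.2%. Whether the counting discarded reads that fall on more than 1 gene, and whether it used strand, is not given in the sources used here, and the part of the sharing in these levels was not tested. In addition, 42 of the 86 members have pseudogenes named after them.

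The summed level of each complex differed little between groups. Complex I summed to 2482 ± 123 CPM in irradiated E79Q cells with CB-839, 2345 ± 83.3 in irradiated WT cells with CB-839, 2245 ± 96.3 in unirradiated E79Q cells with CB-839, 2326 ± 169.8 in unirradiated WT cells with CB-839, 2315 ± 16.3 in irradiated E79Q cells, 2335 ± 95.5 in irradiated WT cells, 2306 ± 75.4 in untreated E79Q cells and 2259.7 ± 34.3 in untreated WT cells (SD, n = 3 each). Complex V had its lowest sum, 2771 ± 105 CPM, in unirradiated E79Q cells with CB-839, against 3097 ± 88.7 CPM in untreated E79Q cells. Its libraries there, at 2892, 2705 and 2716 CPM, all lay below those of untreated E79Q cells at 3150.2, 2994.5 and 3146 CPM. Complexes I and IV were also lowest in unirradiated E79Q cells with CB-839, complex IV at 1210 ± 74.3 CPM. For both, the libraries there overlapped those of untreated E79Q cells. Complex III was lowest in untreated WT cells, at 1073 ± 18.6 CPM. Complexes III and IV had their highest sums in irradiated E79Q cells with CB-839, at 1199 ± 39.1 and 1366 ± 105 CPM. For the 77 members the ratio of the highest to the lowest of the 8 group means had a median of 1.23, against 1.49 for all 15956 genes tested and 1.29 for the 6547 genes at or above the lower quartile of the members' levels. Within 1.2-fold lay 29 members (37.7%), against 11.2% of all genes tested and 23.2% of those 6547. Over 1.5-fold lay NDUFA1, NDUFB8, ATP5ME, UQCRHL, NDUFA13, NDUFA4L2, NDUFV2 and NDUFA7, of which NDUFA4L2, UQCRHL, NDUFA13, NDUFV2 and NDUFA7 averaged under 2 CPM. In bulk RNA, fewer cells of a kind and less RNA per cell cannot be told apart.

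**Figure D1:**
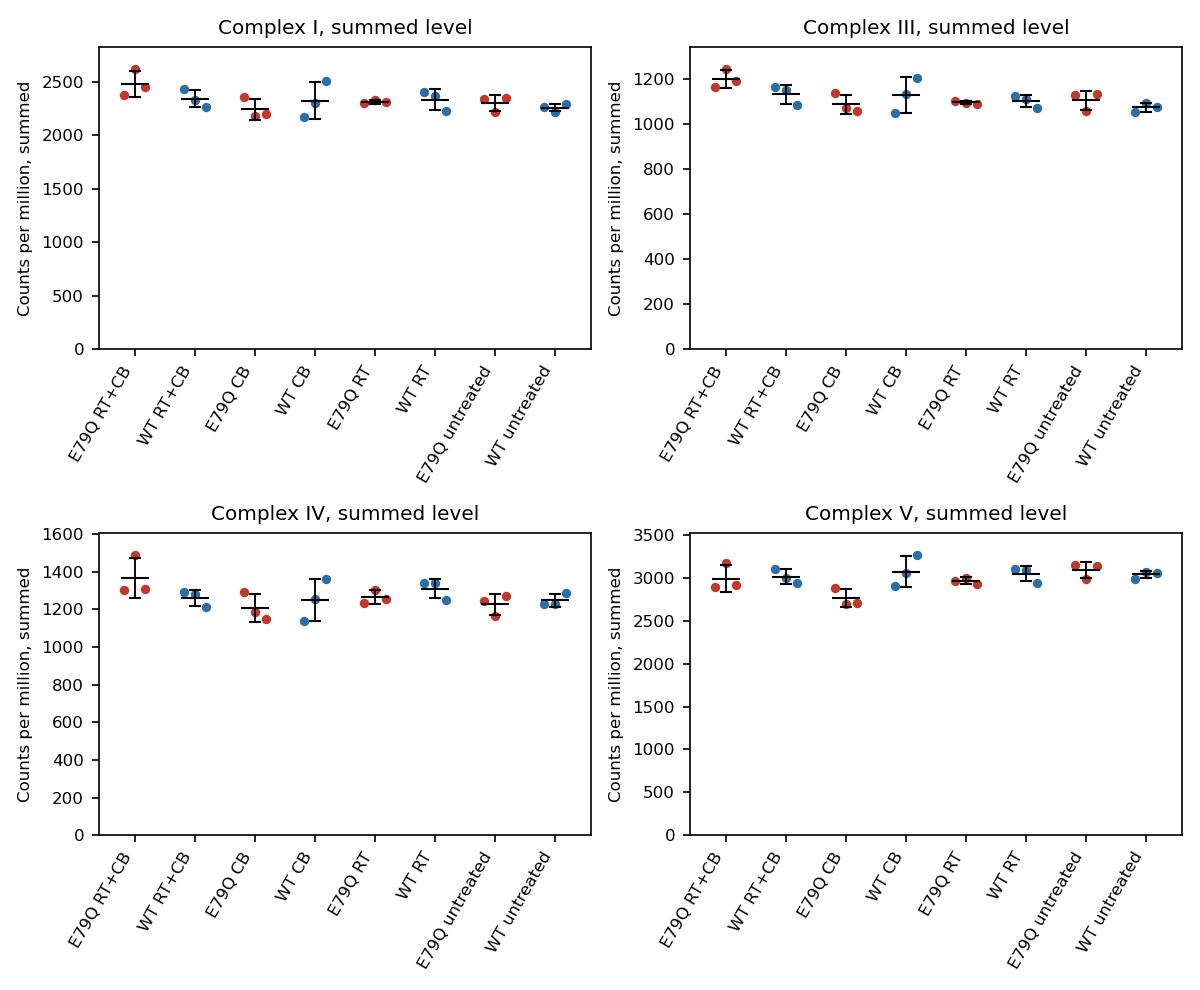
Summed level of the subunit genes of complexes I, III, IV and V in CPM, for each of the 24 libraries in the 8 groups (red, E79Q; blue, WT; RT, radiation; CB, CB-839). Bars are the mean and SD of 3 libraries. Complexes I, IV and V are lowest in unirradiated E79Q cells with CB-839, complex V at 2771 ± 105.

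Genes were called at an adjusted p under 0.05 (edgeR quasi-likelihood test over all 15956 genes, Benjamini-Hochberg). Over the 12 comparisons of 2 groups, 45 of the 77 members were called at least once and 32 never, with 91 calls in all. Only 7 of these calls were over 1.5-fold, and apart from NDUFA4L2 the largest was 0.76 on the log2 scale. Comparisons that share a group are not independent of each other, and their values are given side by side.

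In the fit used here, E79Q cells differed from WT cells in few subunit genes. Some other fits called more of them, as given at the end. In untreated cells 2 members were higher, among them UQCRFS1, and 1 was lower, the ATP synthase inhibitor ATP5IF1, where 9.62% of all genes tested were higher and 10.1% lower. In irradiated cells 1 member was higher and none was lower by this test, though 5 were lower at an unadjusted p under 0.05 and DESeq2 called 2 lower. Of all genes 4.69% were higher and 4.95% lower. In either direction, 6 of the 77 members and 3267 of the 15956 genes tested had an unadjusted p under 0.05. With CB-839 and no radiation, 7 members were lower and none higher (1 at an unadjusted p under 0.05, 0 by DESeq2), where 8.3% of all genes were higher and 6.72% lower. These 7 were ATP5F1A, ATP5F1C, ATP5MC3 and ATP5ME of complex V, UQCR11 and UQCRFS1 of complex III and NDUFB8 of complex I. An unadjusted p under 0.05, in either direction, was found for 23 of the 77 members and 4186 of the 15956 genes tested. The median log2 difference of the 19 members of complex V there was -0.15, against 0.01 over all genes tested, and 17 of the 19 had a value below 0. In irradiated cells with CB-839, NDUFA4L2 was higher and NDUFV3 lower, where 4.4% of all genes were higher and 2.86% lower, and the median of the 77 was 0.09, against -0.0030 over all genes tested. The count of 3 in untreated cells was 1 without library 1 or 2 of untreated E79Q cells or library 3 of untreated WT cells. The 1 call in irradiated cells was lost without any 1 of its 6 libraries. With CB-839 the count of 7 was 4 without library 2 of the E79Q cells, 3 without library 3 of the WT cells and 15 without library 1 of the WT cells. The count of 2 with both treatments was 1 without library 3 of the E79Q cells or library 1 or 3 of the WT cells and 0 without library 2 of the WT cells.

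In the fit used here, radiation moved few members in cells without CB-839. In E79Q cells that had received the drug, 18 members rose with radiation. This order depended on the fit. With the 2 groups of a comparison fitted alone, more members were called in either genotype without the drug than in drug-treated E79Q cells. Counts under other fits are given at the end, without the shares of all genes. In WT cells without the drug 2 members rose, UQCRH and NDUFB9, and 3 fell, ATP5MC2, NDUFA4L2 and NDUFC1, where 9.41% of all genes rose and 8.49% fell. In E79Q cells without the drug none rose by this test (5 at an unadjusted p under 0.05, 0 by DESeq2) and 4 fell, ATP5F1A, UQCRFS1, ATP5MC2 and NDUFC1, where 12.2% of all genes rose and 10.1% fell. In either direction, 12 of the 77 members and 5397 of the 15956 genes tested had an unadjusted p under 0.05 there. In WT cells with CB-839, 3 members rose and 7 fell, where 13.2% of all genes rose and 10.4% fell. In E79Q cells with CB-839, 18 members rose and 1 fell, 23.4% and 1.3% of the 77, where 15.3% of all genes rose and 13.9% fell. The 18 were 9 of complex I, 2 of complex III, 5 of the 13 of complex IV, and ATP5F1B and ATP5F1D of the ATP synthase head. All 13 members of complex IV had a value above 0, with a median log2 difference of 0.17, against -0.0042 over all genes tested. This count of 19 was 11 without library 2 of the unirradiated E79Q cells given CB-839 and 12 without library 2 of the irradiated E79Q cells given CB-839, and a fit of the 2 groups alone called 3 (NDUFB9, COX6A1 and UQCRH). Without the drug, the count of 5 in WT cells was 2 without library 2 of the irradiated cells and 3 without library 1 or 3 of them or library 1 or 2 of untreated WT cells. The count of 4 in E79Q cells was 2 without library 1 of either group. In WT cells with the drug the count of 10 was 4 without library 1 of the irradiated cells and 5 without library 2 of the unirradiated ones.

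With CB-839, more members fell than rose in unirradiated E79Q cells, and more were higher than lower in irradiated E79Q cells. In unirradiated E79Q cells 12 members fell and 3 rose, 15.6% and 3.9% of the 77, where 9.44% of all genes rose and 10.4% fell. Of the 12, 6 belonged to complex V: ATP5F1A, ATP5F1B, ATP5F1C and ATP5F1D of the head, ATP5PB of the stalk and ATP5MC3 of the c-ring. The others were NDUFS3, NDUFB6, NDUFB9 and NDUFA8 of complex I, UQCRFS1 of complex III and COX6A1 of complex IV, and NDUFA1, NDUFB3 and ATP5IF1 rose. The count of 15 was 8 without library 1 of untreated E79Q cells and 9 without library 2 of the drug-treated cells. In irradiated E79Q cells 11 of the 77 members were higher with the drug and 2 lower, where 12.9% of all genes were higher and 13.1% lower. The share of members that was higher was thus near that of all genes, and the share that was lower was below that of all genes. This count of 13 was 5 without library 1 and 8 without library 3 of irradiated E79Q cells, 7 without library 2 of the irradiated E79Q cells given CB-839, 24 without library 1 of that group and 1 with the 2 groups fitted alone. In unirradiated WT cells 6 members rose and 1 fell, where 6.35% of all genes rose and 8.44% fell. In irradiated WT cells 2 rose and 3 fell, where 4.99% of all genes rose and 4.53% fell. The count of 7 in unirradiated WT cells was 2 without library 2 or 3 of the drug-treated cells, 4 and 3 without libraries 1 and 2 of untreated WT cells, and 13 without library 1 of the drug-treated cells. The count of 5 in irradiated WT cells was 0, 2 and 3 without libraries 1, 2 and 3 of irradiated WT cells, and 1 and 2 without libraries 1 and 3 of those with the drug.

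**Figure D2:**
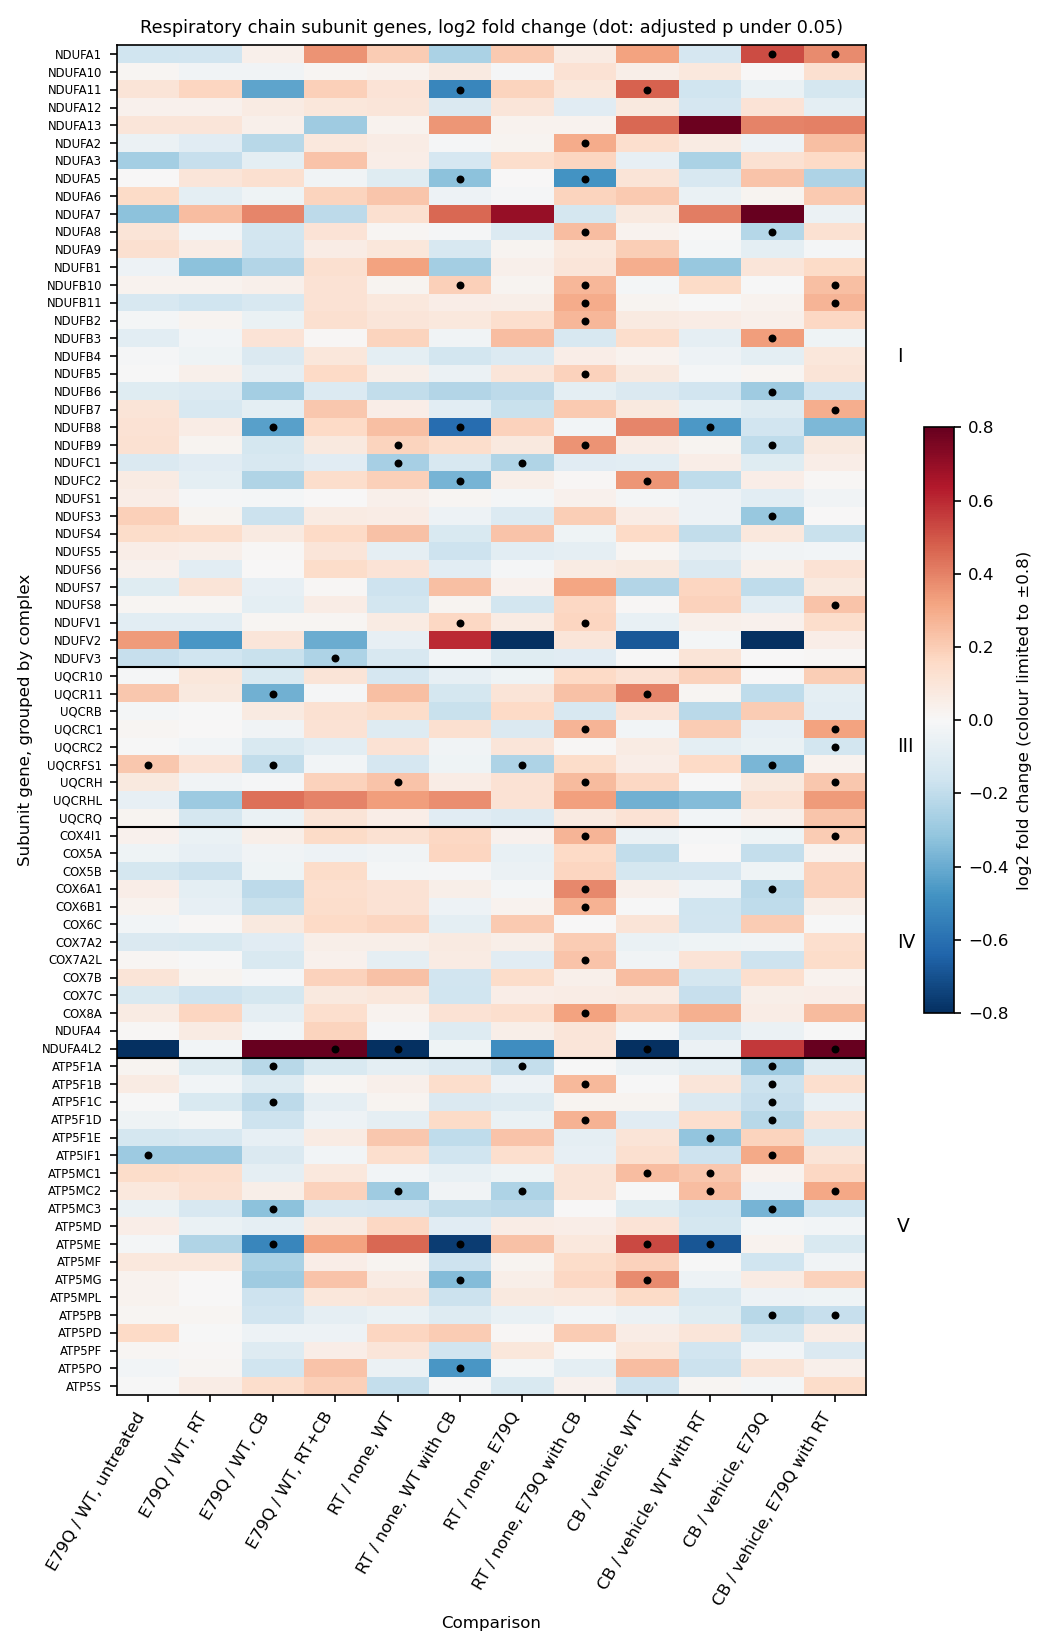
Log2 fold change of 76 of the 77 subunit genes that passed the filter (rows, grouped by complex) in the 12 comparisons of 2 groups (columns, named with the group on top of the fold change first; RT, radiation; CB, CB-839). Red is higher, blue lower, and a dot marks an adjusted p under 0.05 in either direction. The column of radiation in E79Q cells with CB-839 holds 18 dots, the most of the 12, with 1 of them for the fall of NDUFA5.

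The effects of treatment were compared between genotypes by subtracting the WT effect from the E79Q effect. For CB-839 without radiation 1 member had a positive difference and 6 a negative one, where 7.46% of all genes were positive and 6.83% negative, and the median of the 77 was -0.11, against 0.03 over all genes tested. This count of 7 was 4 without library 3 of drug-treated WT cells or library 1 of untreated WT cells, and 14 without library 1 of drug-treated WT cells. For radiation without CB-839 no member was called in either direction by edgeR or by DESeq2, and none had an unadjusted p under 0.05, where 0.815% of all genes were called positive and 0.445% negative. An unadjusted p under 0.05 was found for 1723 of the 15956 genes tested. For radiation with CB-839 none was called by either tool, though 22 members had an unadjusted p under 0.05, all of them positive, and 68 of the 77 values were above 0. Of all genes 0.363% were called positive and 0.714% negative. Of the 15956 genes tested, 1523 had an unadjusted p under 0.05 in either direction and 7553 had a value above 0. The count of called members was 1 without library 1 of the irradiated E79Q cells given CB-839. It was 2 without library 1 of the unirradiated WT cells given CB-839. For CB-839 in irradiated cells none was called by either tool and 13 had an unadjusted p under 0.05, all positive, where 1.26% of all genes were called positive and 0.652% negative. Here 2173 of the 15956 genes tested had an unadjusted p under 0.05 in either direction.

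Complex I has nuclear core subunits, which include those that carry its electrons, and many accessory ones. NDUFS3, a core subunit of the arm that reaches into the matrix, was lower with CB-839 in unirradiated E79Q cells. It was at 52.7, 52.1 and 49.4 CPM in unirradiated E79Q cells with CB-839, against 66.2, 60.4 and 63.7 CPM in untreated E79Q cells. The lowest untreated library was above the highest treated one (log2 fold change -0.30, SE 0.0773, adjusted p = 0.00575), and the call held under each of the 8 other fits and with each library left out. In WT cells the values overlapped, at 52.9, 57.6 and 63.4 CPM in unirradiated WT cells with CB-839, against 53.9, 59.1 and 54.0 CPM in untreated WT cells. NDUFV1, which holds the flavin that takes electrons from NADH, was at 273, 242 and 244 CPM in irradiated WT cells with CB-839, against 214, 225 and 237 CPM in unirradiated WT cells with CB-839. Its 3 irradiated libraries lay above the unirradiated ones (log2 fold change 0.17, SE 0.0607, adjusted p = 0.0462), but the adjusted p was 0.114 to 0.273 without library 1 of the irradiated WT cells given CB-839 or libraries 1 or 2 of the unirradiated WT cells given CB-839, 1 left out at a time. It was 0.0623 to 0.322 with the compared groups fitted alone, with length and GC trends removed, with these trends removed and the replicate block, with no filter or with the replicate block, in turn. NDUFV1 also rose in the same comparison in E79Q cells (0.17, adjusted p = 0.0369), there with overlap, and the adjusted p was 0.0652 to 0.263 without library 2 of the irradiated E79Q cells given CB-839 or libraries 2 or 3 of the unirradiated E79Q cells given CB-839, 1 left out at a time. It was 0.145 to 0.856 with the compared groups fitted alone, with length and GC trends removed, with these trends removed and the replicate block or without the 4 libraries that follow GC, in turn. NDUFS8, an iron-sulfur subunit, was called once, in irradiated E79Q cells with the drug (0.23, adjusted p = 0.0454), where the adjusted p was 0.061 to 0.329 without library 2 of the irradiated E79Q cells given CB-839 or libraries 1, 2 or 3 of irradiated E79Q cells, 1 left out at a time. It was 0.0577 to 0.154 with the compared groups fitted alone, with length and GC trends removed, with these trends removed and the replicate block, with the replicate block or without the 4 libraries that follow GC, in turn. NDUFS1, NDUFS7 and NDUFV2 were called in no comparison.

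Of the 29 accessory subunits of complex I that passed the filter, NDUFB9 changed in opposite directions with treatment. With CB-839 in unirradiated E79Q cells it fell, to 266, 242 and 257 CPM in unirradiated E79Q cells with CB-839, against 304, 286 and 289 CPM in untreated E79Q cells. The groups did not overlap (log2 fold change -0.20, SE 0.0607, adjusted p = 0.0192), and the adjusted p was 0.0902 to 0.111 without library 2 of the unirradiated E79Q cells given CB-839 or library 1 of untreated E79Q cells, 1 left out at a time. When those drug-treated cells were irradiated it was at 314, 359.6 and 308 CPM in irradiated E79Q cells with CB-839. All 3 lay above the unirradiated libraries with the drug (log2 fold change 0.36, SE 0.0607, adjusted p = 8.38e-05), and this call held in every fit and with each library left out. Radiation in WT cells without the drug also went with more NDUFB9, 315, 311 and 287 CPM in irradiated WT cells, against 269, 269.5 and 269 CPM in untreated WT cells. The groups were apart (log2 fold change 0.18, SE 0.0606, adjusted p = 0.0428), but the adjusted p was 0.118 to 0.19 without libraries 1 or 2 of irradiated WT cells or libraries 1, 2 or 3 of untreated WT cells, 1 left out at a time. It was 0.0531 to 0.0621 with no filter or with the replicate block, in turn. Of the main transcript of NDUFB9 26.0% is annotated with other genes, and 3 pseudogenes carry its name.

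NDUFB10, an accessory subunit of the membrane arm, rose with radiation in drug-treated WT cells, to 135, 125 and 129.9 CPM in irradiated WT cells with CB-839, against 113, 110.1 and 118 CPM in unirradiated WT cells with CB-839. No library overlapped (log2 fold change 0.19, SE 0.0641, adjusted p = 0.029), but the adjusted p was 0.0591 to 0.12 without libraries 1 or 3 of the irradiated WT cells given CB-839 or libraries 1 or 2 of the unirradiated WT cells given CB-839, 1 left out at a time. It was 0.0508 to 0.083 with length and GC trends removed, with these trends removed and the replicate block or with no filter, in turn. In drug-treated E79Q cells NDUFB10 rose with radiation as well (0.27, adjusted p = 0.0027). That call held with each library left out. It was lost with length and GC trends removed, with or without the replicate block, and with the compared groups fitted alone (adjusted p up to 0.0813). The difference between genotypes was not called (0.07, adjusted p = 0.849). NDUFB10 was also higher with the drug, at 125, 155 and 142 CPM in irradiated E79Q cells with CB-839, against 123, 116 and 118 CPM in irradiated E79Q cells. The lowest library with the drug stood just above the highest without it (log2 fold change 0.24, SE 0.0637, adjusted p = 0.00676), and the adjusted p was 0.0953 with the compared groups fitted alone. NDUFA5, an accessory subunit of the matrix arm, went the other way from most members in drug-treated E79Q cells, with 52.2, 28.98 and 44.8 CPM in irradiated E79Q cells with CB-839, against 54.7, 61.8 and 58.3 CPM in unirradiated E79Q cells with CB-839. Library 2 of the irradiated cells, which follows GC content, was far below the other 2, all 3 lay below the unirradiated ones (log2 fold change -0.48, SE 0.119, adjusted p = 0.00359), and the adjusted p was 0.0903 with the compared groups fitted alone. NDUFA5 also fell without overlap in the same comparison in WT cells (-0.33, adjusted p = 0.0472). That call held under 5 of the 8 other fits and in 1 of the 6 fits that leave out 1 library each (adjusted p up to 0.236). The difference between genotypes was not called (-0.15, adjusted p = 0.823). NDUFC1, a small subunit of the membrane arm, was lower after radiation without the drug in both genotypes. Its levels were 25.6, 28.5 and 27.2 CPM in irradiated E79Q cells, against 33.3, 29.4 and 33.1 CPM in untreated E79Q cells. They were 28.97, 28.6 and 29.1 CPM in irradiated WT cells, against 36.0, 32.6 and 35.4 CPM in untreated WT cells. Neither pair overlapped, with log2 fold changes of -0.24 (adjusted p = 0.0339) in E79Q cells and -0.26 (adjusted p = 0.0229) in WT cells. For E79Q cells the adjusted p was 0.0658 to 0.127 without libraries 1 or 3 of irradiated E79Q cells or libraries 1 or 3 of untreated E79Q cells, 1 left out at a time. It was 0.0609 with no filter. For WT cells the adjusted p was 0.0557 to 0.0988 without libraries 1, 2 or 3 of irradiated WT cells or libraries 1 or 3 of untreated WT cells, 1 left out at a time.

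NDUFA1 and NDUFB3, both accessory subunits, rose with CB-839 in unirradiated E79Q cells. NDUFA1, which is encoded on the X chromosome, was at 28.0, 22.8 and 21.9 CPM in unirradiated E79Q cells with CB-839, against 17.1, 15.0 and 18.2 CPM in untreated E79Q cells. The groups did not overlap (log2 fold change 0.52, SE 0.137, adjusted p = 0.00726), and the adjusted p was 0.066 without library 1 of the unirradiated E79Q cells given CB-839. NDUFA1 was also higher with the drug in irradiated E79Q cells (0.38, adjusted p = 0.0348). That call held under 7 of the 8 other fits and in 2 of 6 leave-one-out fits (adjusted p up to 0.14). NDUFB3 was at 27.4, 25.1 and 26.2 CPM in unirradiated E79Q cells with CB-839, against 19.6, 19.6 and 23.4 CPM in untreated E79Q cells. It was higher in every drug-treated library (log2 fold change 0.33, SE 0.103, adjusted p = 0.0222), but the adjusted p was 0.0641 to 0.106 without libraries 1 or 3 of the unirradiated E79Q cells given CB-839 or libraries 1 or 2 of untreated E79Q cells, 1 left out at a time. In unirradiated WT cells the drug gave 0.32 for NDUFA1 (adjusted p = 0.114) and 0.14 for NDUFB3 (adjusted p = 0.416). The difference between genotypes was called for neither.

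The other accessory subunits that were called lost the call under other fits or without single libraries. With radiation in drug-treated E79Q cells NDUFA2 rose by 0.30 on the log2 scale (adjusted p = 0.0396), a call that held under 3 of the 8 other fits, not with the replicate block, and in 2 of the 6 fits that leave out 1 library each (adjusted p up to 0.19). NDUFB2 rose by 0.26 (adjusted p = 0.0105), under 7 of 8 fits and in 4 of 6 leave-one-out fits (up to 0.0828). NDUFB5 rose by 0.18 (adjusted p = 0.0149), under 6 of 8 fits and in 4 of 6 leave-one-out fits (up to 0.161). NDUFB11 was higher in the same comparison (0.30, adjusted p = 0.00859), under 5 of 8 fits and in 5 of 6 leave-one-out fits (up to 0.149). With the drug in irradiated E79Q cells NDUFB11 and NDUFB7 were higher (0.27 and 0.29, adjusted p = 0.0157 and 0.0242), each under 6 of 8 fits and in 4 of 6 leave-one-out fits (up to 0.148 and 0.14). NDUFA8 fell with the drug in unirradiated E79Q cells (-0.23, adjusted p = 0.0205), under all 8 fits but in only 2 of 6 leave-one-out fits (up to 0.117). It rose with radiation after the drug (0.24, adjusted p = 0.00963), under 7 of 8 fits and in 5 of 6 leave-one-out fits (up to 0.11). NDUFB6 fell with the drug in unirradiated E79Q cells (-0.29, adjusted p = 0.0458), under all 8 fits but in 1 of 6 leave-one-out fits (up to 0.172). NDUFV3 was lower in E79Q than in WT cells after both treatments (-0.25, adjusted p = 0.0452), under 4 of 8 fits, not with the replicate block, and in 2 of 6 leave-one-out fits (up to 0.391). NDUFA3, NDUFA6, NDUFA7, NDUFA9, NDUFA10, NDUFA12, NDUFA13, NDUFB1, NDUFB4, NDUFS4, NDUFS5 and NDUFS6 were called in no comparison.

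Radiation in drug-treated WT cells lowered 7 members, and 6 of them, chosen here after their values were seen, share over 10% of their main transcript with another gene: ATP5ME, ATP5PO, NDUFB8, NDUFC2, NDUFA11 and ATP5MG. Of the 29 members with such sharing 6 fell and 1 rose in that comparison, against 1 and 2 of the 48 others. With CB-839 in unirradiated WT cells, 5 of the 29 rose, NDUFC2, ATP5MG, ATP5ME, NDUFA11 and UQCR11, against 1 of the 48. The part of the shared annotation in these results was not tested. NDUFB8, an accessory subunit of the membrane arm, was at 10.2, 8.99 and 9.15 CPM in irradiated WT cells with CB-839, against 11.6, 16.2 and 15.6 CPM in unirradiated WT cells with CB-839. No irradiated library reached an unirradiated one (log2 fold change -0.61, SE 0.145, adjusted p = 0.00276), and the call held in every fit and with each library left out. Against irradiated WT cells without the drug it was also lower, at 10.2, 8.99 and 9.15 CPM in irradiated WT cells with CB-839, against 14.0, 14.4 and 10.5 CPM in irradiated WT cells (log2 fold change -0.46, SE 0.145, adjusted p = 0.0456), where the adjusted p was 0.0833 to 0.186 without libraries 1, 2 or 3 of the irradiated WT cells given CB-839 or libraries 1 or 2 of irradiated WT cells, 1 left out at a time. It was 0.0614 with the replicate block. Of its main transcript 71.7% overlaps other genes, among them HIF1AN at 147 CPM. NDUFA11, an accessory membrane subunit, was at 13.2, 16.5 and 17.1 CPM in unirradiated WT cells with CB-839, against 12.2, 10.1 and 11.5 CPM in untreated WT cells. These were apart (log2 fold change 0.47, SE 0.145, adjusted p = 0.0277), but the adjusted p was 0.0664 to 0.131 without libraries 2 or 3 of the unirradiated WT cells given CB-839 or libraries 2 or 3 of untreated WT cells, 1 left out at a time.

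In complex III, UQCRFS1, the Rieske iron-sulfur protein that takes electrons from ubiquinol, was highest in untreated E79Q cells. It was at 125, 124 and 114 CPM in untreated E79Q cells, against 99.0, 112 and 102 CPM in untreated WT cells. These did not overlap (log2 fold change 0.22, SE 0.0628, adjusted p = 0.0137), but the adjusted p was 0.0626 to 0.0882 without libraries 1 or 2 of untreated E79Q cells or libraries 1 or 3 of untreated WT cells, 1 left out at a time. With CB-839 alone it fell in E79Q cells, to 91.6, 93.5 and 97.3 CPM in unirradiated E79Q cells with CB-839 (log2 fold change -0.36, SE 0.0632, adjusted p = 0.000121). With radiation alone it fell as well, to 104, 102 and 100.2 CPM in irradiated E79Q cells (log2 fold change -0.25, SE 0.0626, adjusted p = 0.00497). Both sets lay below every untreated E79Q library, and both calls held in each of the other fits and with each library left out. In WT cells the same treatments gave 105, 105 and 114 CPM in unirradiated WT cells with CB-839 and 97.0, 97.4 and 89.7 CPM in irradiated WT cells, with log2 fold changes of 0.05 (adjusted p = 0.653) and -0.14 (adjusted p = 0.146). The drug effect, as E79Q minus WT, differed by -0.42 (adjusted p = 0.00184), and the radiation effect was not called as different (-0.11, adjusted p = 0.735). The 2 falls share the untreated E79Q libraries.

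UQCR11, the smallest subunit of complex III, moved apart in the genotypes under CB-839. It was at 24.5, 22.8 and 22.9 CPM in unirradiated E79Q cells with CB-839, against 30.4, 30.4 and 30.7 CPM in unirradiated WT cells with CB-839. The ranges were well separated (log2 fold change -0.39, SE 0.0949, adjusted p = 0.00527). Without treatment it was at 29.2, 25.0 and 26.7 CPM in untreated E79Q cells, against 23.6, 25.5 and 20.6 CPM in untreated WT cells, with 1 WT library inside the E79Q range. The rise with the drug in WT cells was 0.39 on the log2 scale (adjusted p = 0.00428), and E79Q cells had -0.21 (adjusted p = 0.137). The difference of these effects was -0.60 (adjusted p = 0.00273). All 3 of the called values held in each of the other fits and with each library left out. It shares 17.7% of its main transcript with a gene that had almost no reads.

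The hinge protein UQCRH, which docks cytochrome c, rose with radiation in 2 of 4 comparisons. In WT cells it was at 182, 186 and 180.2 CPM in irradiated WT cells, against 157, 152 and 159.7 CPM in untreated WT cells. All irradiated libraries were higher (log2 fold change 0.23, SE 0.0612, adjusted p = 0.00916), and the adjusted p was 0.0583 without library 2 of untreated WT cells. In drug-treated E79Q cells it was at 203, 211 and 208 CPM in irradiated E79Q cells with CB-839, against 176, 171 and 175 CPM in unirradiated E79Q cells with CB-839, again apart (log2 fold change 0.25, SE 0.0610, adjusted p = 0.0027), and this held in each fit and with each library left out. It was not called with radiation in E79Q cells without the drug (0.12, adjusted p = 0.173) or in WT cells with it (0.06, adjusted p = 0.51). The core proteins UQCRC1 and UQCRC2, which frame the matrix side of the complex, parted in irradiated E79Q cells. UQCRC1 was at 357, 446 and 377 CPM in irradiated E79Q cells with CB-839, against 319.8, 315 and 310.3 CPM in irradiated E79Q cells. It was higher in every drug-treated library (log2 fold change 0.32, SE 0.0714, adjusted p = 0.00157), under each fit and with each library left out, although library 2 of the drug-treated group lay far above the other 2. UQCRC2 was at 161, 153 and 157 CPM in irradiated E79Q cells with CB-839, against 176, 174 and 171 CPM in irradiated E79Q cells. It was lower without overlap (log2 fold change -0.14, SE 0.0470, adjusted p = 0.0247), but the adjusted p was 0.0653 to 0.14 without libraries 2 or 3 of the irradiated E79Q cells given CB-839 or libraries 1, 2 or 3 of irradiated E79Q cells, 1 left out at a time. It was 0.0663 to 0.283 with the compared groups fitted alone, with length and GC trends removed, with these trends removed and the replicate block or with no filter, in turn. UQCRB, UQCRQ, UQCR10 and UQCRHL were called in no comparison.

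Among the common subunits of complex IV, calls were made only where drug-treated E79Q cells were compared. COX6A1, a regulatory subunit in its widely expressed form, was at 62.1, 73.4 and 68.4 CPM in irradiated E79Q cells with CB-839, against 51.7, 48.4 and 56.0 CPM in unirradiated E79Q cells with CB-839. No library overlapped (log2 fold change 0.39, SE 0.0727, adjusted p = 0.000278), and the call held in each fit and with each library left out. Against 64.4, 59.0 and 58.1 CPM in untreated E79Q cells, CB-839 alone gave a fall without overlap (log2 fold change -0.22, SE 0.0733, adjusted p = 0.0357), although the adjusted p was 0.0785 to 0.181 without libraries 1 or 2 of the unirradiated E79Q cells given CB-839 or library 1 of untreated E79Q cells, 1 left out at a time. It was 0.0564 without the 4 libraries that follow GC. COX4I1, COX6B1, COX7A2L and COX8A rose with radiation in the same drug-treated cells, with log2 fold changes of 0.27, 0.28, 0.23 and 0.32 and adjusted p of 0.00421, 0.0149, 0.0267 and 0.0121. COX4I1 was at 239, 295 and 249 CPM in irradiated E79Q cells with CB-839, against 231, 213 and 204 CPM in unirradiated E79Q cells with CB-839. COX8A was at 103, 127 and 99.5 CPM in irradiated E79Q cells with CB-839, against 93.4, 80.5 and 89.4 CPM in unirradiated E79Q cells with CB-839. In both, library 2 of the irradiated drug-treated group, which follows GC content, was the highest. Without it the adjusted p was 0.127 for COX6B1, 0.267 for COX7A2L and 0.0943 for COX8A, while COX4I1 remained called. The call held in 3 of 6 leave-one-out fits for COX6B1 and for COX7A2L and in 4 of 6 for COX8A. With the 2 groups fitted alone none of these 4 was called (0.0723 to 0.163). NDUFA4, COX5A, COX5B, COX6C, COX7A2, COX7B and COX7C were called in no comparison.

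NDUFA4L2, a relative of NDUFA4 known to be raised by hypoxia and to lower the activity of complex I, was the member with the widest swings and one of the least expressed. NDUFA4 itself ranged from 80.2 to 97.2 CPM over all libraries. NDUFA4L2 was at 0.816, 0.705 and 1.02 CPM in untreated E79Q cells, against 1.54, 1.203 and 1.76 CPM in untreated WT cells, a difference that was not called (adjusted p = 0.0938). With CB-839 it was at 0.959, 0.515 and 0.338 CPM in unirradiated WT cells with CB-839, against 1.54, 1.203 and 1.76 CPM in untreated WT cells. All 3 drug-treated libraries were lower (log2 fold change -1.30, SE 0.356, adjusted p = 0.0123), though the adjusted p was 0.0579 to 0.0829 without libraries 2 or 3 of the unirradiated WT cells given CB-839 or library 3 of untreated WT cells, 1 left out at a time. It was 0.0853 without the 4 libraries that follow GC. Radiation in WT cells went with 0.709, 0.356 and 0.777 CPM in irradiated WT cells, below all untreated libraries (log2 fold change -1.29, SE 0.353, adjusted p = 0.0103), where the adjusted p was 0.0807 without library 2 of irradiated WT cells. With both treatments it was at 1.203, 1.43 and 1.38 CPM in irradiated E79Q cells with CB-839, against 0.569, 0.634 and 0.569 CPM in irradiated WT cells with CB-839. The genotypes did not overlap (log2 fold change 1.18, SE 0.352, adjusted p = 0.039), but the adjusted p was 0.0875 to 0.118 without libraries 2 or 3 of the irradiated E79Q cells given CB-839 or libraries 1, 2 or 3 of the irradiated WT cells given CB-839, 1 left out at a time. It was 0.0541 to 0.162 with DESeq2, with the compared groups fitted alone, with no filter or without the 4 libraries that follow GC, in turn. In irradiated E79Q cells the drug gave 1.15 (adjusted p = 0.0161), where the adjusted p was 0.0578 to 0.0914 without library 2 of the irradiated E79Q cells given CB-839 or libraries 1 or 2 of irradiated E79Q cells, 1 left out at a time. It was 0.0548 to 0.0554 with the compared groups fitted alone or without the 4 libraries that follow GC, in turn. Its drug effect without radiation differed between genotypes by 1.87 (adjusted p = 0.0115, and 0.0694 without the 4 libraries that follow GC). Levels near 1 CPM stand for few reads.

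**Figure D3:**
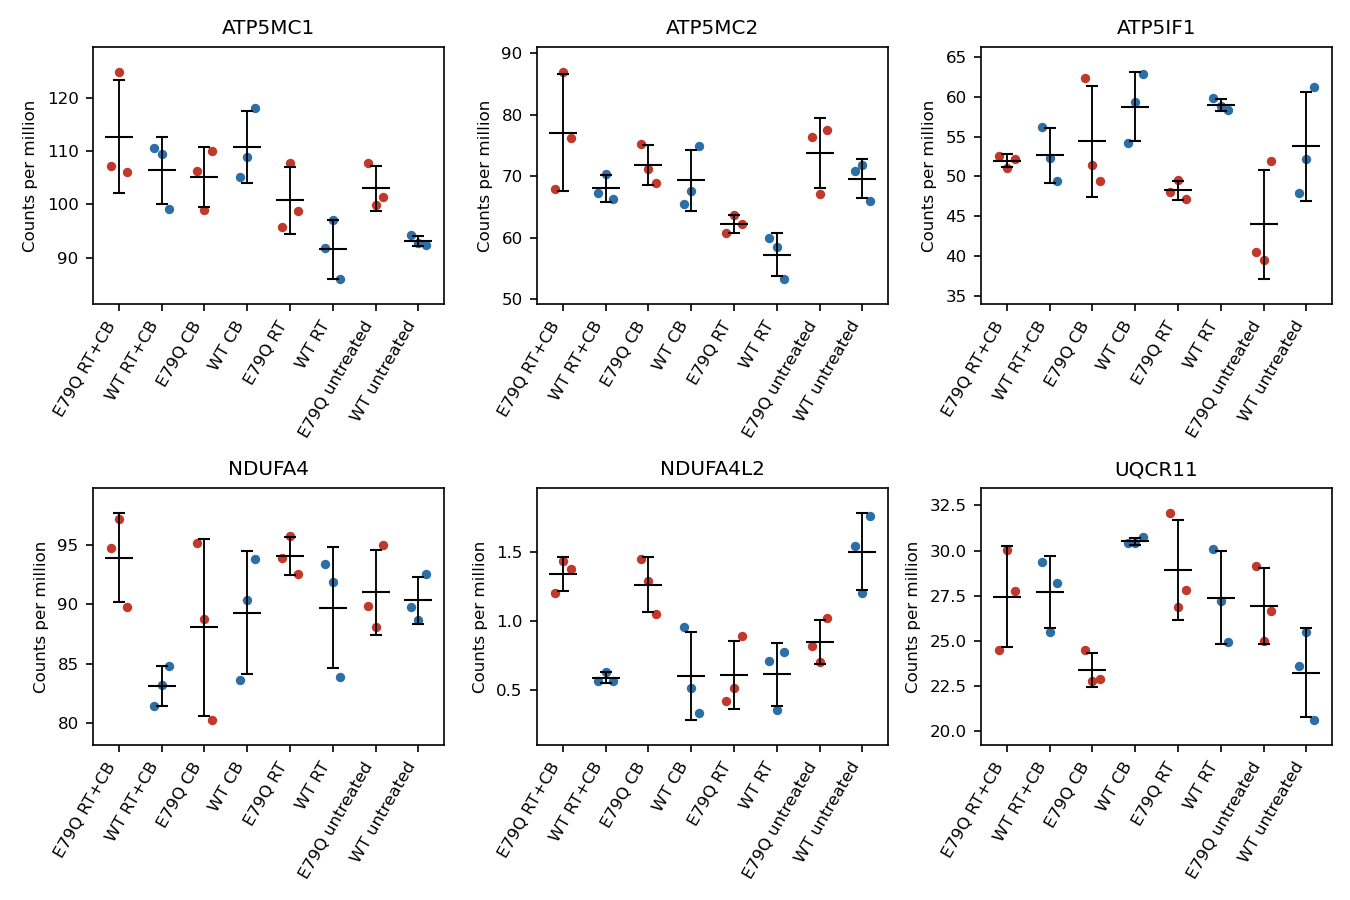
Levels in CPM of 2 c-ring genes, the ATP synthase inhibitor, NDUFA4 and its relative NDUFA4L2, and UQCR11, in each library of the 8 groups (red, E79Q; blue, WT; RT, radiation; CB, CB-839; bars, mean and SD of 3; axes do not start at 0). NDUFA4L2 stays under 2 CPM in all libraries, and UQCR11 is at 23.4 in E79Q and 30.5 in WT cells with CB-839.

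Complex V is a rotary motor with a head (F1) in the matrix, a ring of c subunits in the membrane and a peripheral stalk that holds them together. In its head the alpha subunit ATP5F1A, which pairs with the catalytic beta subunits, fell with CB-839 in unirradiated E79Q cells. It was at 447, 424 and 425 CPM in unirradiated E79Q cells with CB-839, against 545, 509.8 and 529.8 CPM in untreated E79Q cells. The highest treated library lay well below the lowest untreated one (log2 fold change -0.29, SE 0.0442, adjusted p = 2.23e-05). With radiation alone it was at 457, 461 and 468 CPM in irradiated E79Q cells, also below every untreated E79Q library (log2 fold change -0.19, SE 0.0441, adjusted p = 0.00204). Against 491, 507 and 516 CPM in unirradiated WT cells with CB-839, E79Q cells with the drug were lower (log2 fold change -0.22, SE 0.0442, adjusted p = 0.000601). These 3 calls held under each of the 8 other fits and with each library left out. In WT cells the drug gave -0.04 (adjusted p = 0.571), and the effects differed by -0.25 (adjusted p = 0.00791), which held likewise. With both treatments it was at 422, 454 and 414 CPM in irradiated E79Q cells with CB-839, which overlapped the cells with the drug alone.

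The gamma subunit ATP5F1C, the shaft that turns within the head, fell in the same comparison. It was at 152, 146 and 155 CPM in unirradiated E79Q cells with CB-839, against 170.3, 173 and 171 CPM in untreated E79Q cells. The groups were apart (log2 fold change -0.19, SE 0.0443, adjusted p = 0.00342). It was at 168, 175 and 181 CPM in unirradiated WT cells with CB-839, all above the E79Q cells with the drug (log2 fold change -0.21, SE 0.0443, adjusted p = 0.00114). Both calls held in every fit and with each library left out. The drug effect differed between genotypes by -0.21 (adjusted p = 0.0228), but the adjusted p was 0.0594 to 0.0737 without library 2 of the unirradiated E79Q cells given CB-839 or library 3 of the unirradiated WT cells given CB-839 or library 1 of untreated WT cells, 1 left out at a time. It was 0.129 with no filter. ATP5F1B and ATP5F1D, the beta and delta subunits, also fell with the drug in E79Q cells, to 869 ± 32.6 CPM, against 978 ± 33.1 CPM, for ATP5F1B and to 111 ± 3.14 CPM, against 129.7 ± 8.20 CPM, for ATP5F1D. Their adjusted p were 0.0423 and 0.0216. For ATP5F1B the adjusted p was 0.0642 to 0.162 without libraries 2 or 3 of the unirradiated E79Q cells given CB-839 or libraries 1 or 3 of untreated E79Q cells, 1 left out at a time. It was 0.055 with the replicate block. For ATP5F1D the adjusted p was 0.0545 to 0.14 without libraries 2 or 3 of the unirradiated E79Q cells given CB-839 or library 1 of untreated E79Q cells, 1 left out at a time. Of the 5 genes of the head, the epsilon subunit ATP5F1E was not among those that fell. It was lower with the drug in irradiated WT cells, at 117, 124 and 115 CPM in irradiated WT cells with CB-839, against 152, 151 and 141 CPM in irradiated WT cells. These did not overlap (log2 fold change -0.32, SE 0.0862, adjusted p = 0.0201), but the adjusted p was 0.0704 to 0.0883 without libraries 1 or 3 of the irradiated WT cells given CB-839 or libraries 1 or 2 of irradiated WT cells, 1 left out at a time. It was 0.216 to 0.241 with length and GC trends removed or with these trends removed and the replicate block, in turn.

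**Figure D4:**
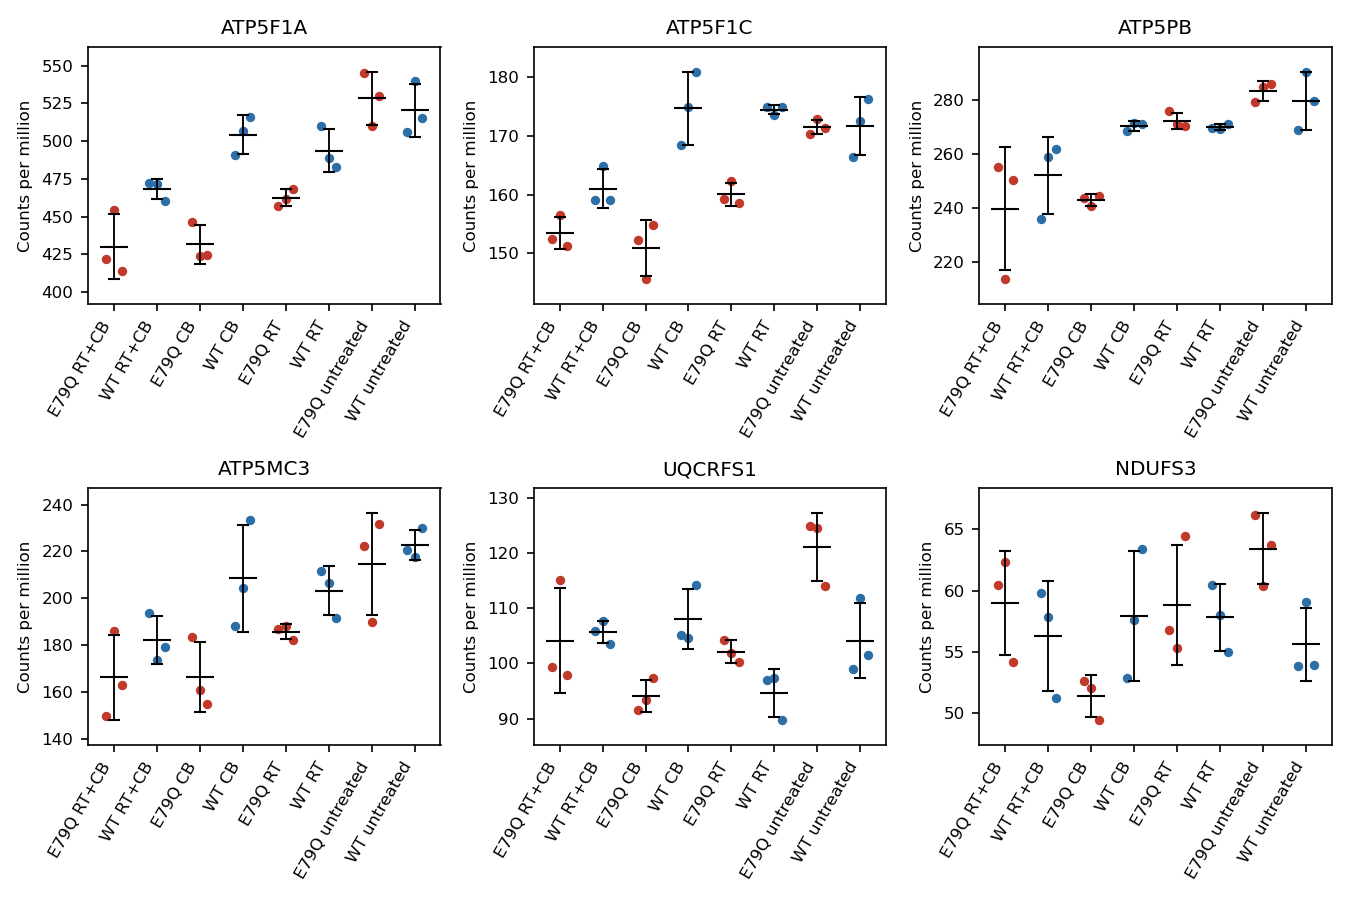
Levels in CPM of the 6 subunit genes that were lower with CB-839 in unirradiated E79Q cells under all 8 other fits and with each library left out, in each library of the 8 groups (red, E79Q; blue, WT; RT, radiation; CB, CB-839; bars, mean and SD of 3; axes do not start at 0). ATP5F1A is at 432 ± 12.9 in E79Q cells with CB-839 and 528 ± 17.6 in untreated E79Q cells.

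In the peripheral stalk ATP5PB, its membrane-anchored b subunit, fell with the drug in both radiation states of E79Q cells. Without radiation it was at 244, 240.5 and 244 CPM in unirradiated E79Q cells with CB-839, against 279, 285 and 286 CPM in untreated E79Q cells. The 2 groups were narrow and far apart (log2 fold change -0.22, SE 0.0538, adjusted p = 0.00386), in every fit and with each library left out. After radiation it was at 255, 213 and 250.2 CPM in irradiated E79Q cells with CB-839, against 276, 271 and 270.2 CPM in irradiated E79Q cells. These were apart as well (log2 fold change -0.18, SE 0.0536, adjusted p = 0.012), with library 2 of the drug-treated group lowest, but the adjusted p was 0.0638 to 0.147 without library 2 of the irradiated E79Q cells given CB-839 or library 1 of irradiated E79Q cells, 1 left out at a time. It was 0.0572 to 0.164 with the compared groups fitted alone, with length and GC trends removed, with these trends removed and the replicate block or with no filter, in turn. ATP5PO, the subunit that caps the stalk and ties it to the head, fell with radiation in drug-treated WT cells, to 15.8, 16.8 and 14.1 CPM in irradiated WT cells with CB-839, against 18.3, 23.6 and 22.4 CPM in unirradiated WT cells with CB-839. The groups did not overlap (log2 fold change -0.47, SE 0.105, adjusted p = 0.00176), in every fit and with each library left out, and 70.3% of its main transcript is annotated with other genes. ATP5PD and ATP5PF were called in no comparison.

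The 3 genes ATP5MC1, ATP5MC2 and ATP5MC3, encode the same mature c subunit behind different import signals. ATP5MC3 was the highest of the 3 in CPM, with a main transcript of 5484 bases, against 614 for ATP5MC1 and 1950 for ATP5MC2. It was at 183, 161 and 155 CPM in unirradiated E79Q cells with CB-839, against 222, 190.0 and 232 CPM in untreated E79Q cells. The E79Q cells with CB-839 were lower without overlap (log2 fold change -0.37, SE 0.0821, adjusted p = 0.00179), in every fit and with each library left out. Against 188, 204 and 233 CPM in unirradiated WT cells with CB-839, they were lower too (log2 fold change -0.33, SE 0.0821, adjusted p = 0.00607), where the adjusted p was 0.0566 to 0.0691 without library 3 of the unirradiated E79Q cells given CB-839 or library 3 of the unirradiated WT cells given CB-839, 1 left out at a time. ATP5MC1 rose with the drug in WT cells, to 105, 109 and 118 CPM in unirradiated WT cells with CB-839, against 94.2, 92.8 and 92.4 CPM in untreated WT cells. The drug-treated libraries were all higher (log2 fold change 0.25, SE 0.0686, adjusted p = 0.0127), although the adjusted p was 0.0526 to 0.0964 without library 3 of the unirradiated WT cells given CB-839 or library 3 of untreated WT cells, 1 left out at a time. After radiation the drug also went with more ATP5MC1 in WT cells (0.22, adjusted p = 0.0452), at 111, 109 and 99.1 CPM in irradiated WT cells with CB-839, against 91.8, 97.0 and 86.0 CPM in irradiated WT cells. Here the adjusted p was 0.1 to 0.195 without libraries 1 or 2 of the irradiated WT cells given CB-839 or libraries 1 or 3 of irradiated WT cells, 1 left out at a time. It was 0.0578 with the replicate block. Counts of ATP5MC1 and ATP5MC2 may be touched by the 7 and 3 pseudogenes that bear their names.

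ATP5MC2 fell with radiation in cells without the drug, in both genotypes. It was at 60.8, 63.7 and 62.3 CPM in irradiated E79Q cells, against 76.4, 67.2 and 77.5 CPM in untreated E79Q cells. It was at 59.9, 58.4 and 53.3 CPM in irradiated WT cells, against 70.9, 71.8 and 66.0 CPM in untreated WT cells. In both, all irradiated libraries were below all untreated ones, with log2 fold changes of -0.24 (adjusted p = 0.0205) and -0.28 (adjusted p = 0.0101). For E79Q cells the adjusted p was 0.0656 to 0.0815 without library 1 of irradiated E79Q cells or libraries 1 or 3 of untreated E79Q cells, 1 left out at a time. For WT cells the adjusted p was 0.0717 without library 3 of irradiated WT cells. Where cells had received the drug before radiation, the levels were 68.0, 87.0 and 76.3 CPM in irradiated E79Q cells with CB-839 and 67.3, 70.4 and 66.3 CPM in irradiated WT cells with CB-839, higher than in irradiated cells without it by 0.31 (adjusted p = 0.00343) and 0.25 (adjusted p = 0.0389). Neither pair overlapped. In E79Q cells the adjusted p was 0.0638 with the compared groups fitted alone. In WT cells the adjusted p was 0.0528 to 0.174 without libraries 1, 2 or 3 of the irradiated WT cells given CB-839 or libraries 1, 2 or 3 of irradiated WT cells, 1 left out at a time. It was 0.0543 with the replicate block. These comparisons share the irradiated groups without the drug.

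Of the small membrane subunits, ATP5ME, the e subunit that helps to pair ATP synthases into dimers, had the largest changes of complex V. It was at 6.82, 8.04 and 5.84 CPM in irradiated WT cells with CB-839, against 9.48, 11.7 and 13.8 CPM in unirradiated WT cells with CB-839. No library overlapped (log2 fold change -0.76, SE 0.165, adjusted p = 0.00125), and the call held in every fit and with each library left out. Without the drug it was at 12.5, 10.1 and 10.8 CPM in irradiated WT cells, also all above irradiated WT cells with it (log2 fold change -0.69, SE 0.165, adjusted p = 0.00856), where the adjusted p was 0.0558 to 0.0622 without library 3 of the irradiated WT cells given CB-839 or library 1 of irradiated WT cells, 1 left out at a time. ATP5MF, ATP5MD and ATP5MPL were called in no comparison, nor was ATP5S, a factor of the coupling between head and membrane. ATP5IF1, the protein that blocks ATP hydrolysis by the synthase when the proton gradient fails, was at 40.5, 39.5 and 51.9 CPM in untreated E79Q cells, against 47.9, 52.1 and 61.3 CPM in untreated WT cells. Here 1 E79Q library lay within the WT range (log2 fold change -0.29, SE 0.0963, adjusted p = 0.0331), and the adjusted p was 0.0511 to 0.245 without libraries 1 or 2 of untreated E79Q cells or libraries 2 or 3 of untreated WT cells, 1 left out at a time. It was 0.051 without the 4 libraries that follow GC. With the drug it was at 62.4, 51.4 and 49.4 CPM in unirradiated E79Q cells with CB-839, higher than without it but overlapping (log2 fold change 0.30, SE 0.0968, adjusted p = 0.0261), where the adjusted p was 0.146 to 0.218 without library 1 of the unirradiated E79Q cells given CB-839 or libraries 1 or 2 of untreated E79Q cells, 1 left out at a time. In irradiated cells it was at 48.1, 49.5 and 47.2 CPM in irradiated E79Q cells, against 59.8, 58.8 and 58.3 CPM in irradiated WT cells, apart but not called (adjusted p = 0.0514). The remaining groups had 54.2, 59.3 and 62.8 CPM in unirradiated WT cells with CB-839, 52.6, 51.0 and 52.2 CPM in irradiated E79Q cells with CB-839 and 56.3, 52.3 and 49.4 CPM in irradiated WT cells with CB-839.

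**Figure D5:**
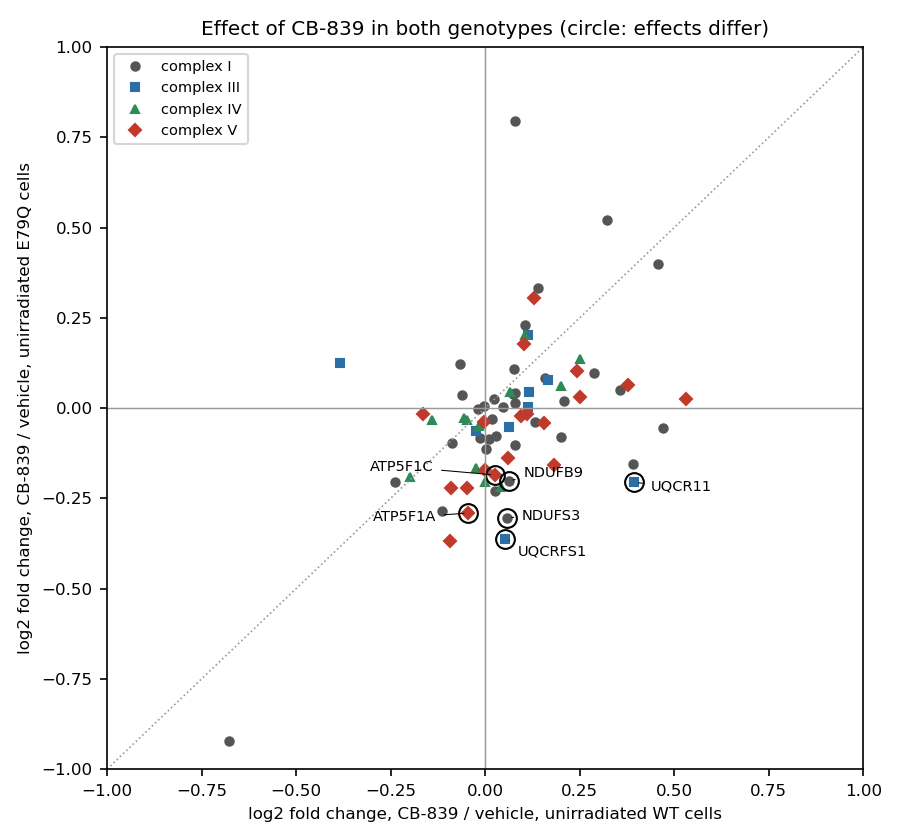
Log2 fold change with CB-839 in unirradiated E79Q cells (vertical axis) and in unirradiated WT cells (horizontal axis) for 76 subunit genes, with NDUFA4L2 left out for its range. Marks give the complex. Circles mark the 6 plotted genes whose effects differ between genotypes at an adjusted p under 0.05, all below the dotted line of equal effects. NDUFA4L2 was called as well, with a difference of 1.87, which puts it on the other side of the line.

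Other genes of the same pathway, from lists that are not members, were read in the comparison with the most falls of complex V, CB-839 in unirradiated E79Q cells, where 10.4% of all genes fell and 9.44% rose. Assembly factors fell in 5 of 18 cases for complex I, 2 of 6 for complex III and 4 of 23 for complex IV, with none higher, and none of 5 changed for complex V. Among these were DMAC2 of complex I (log2 fold change -0.30, adjusted p = 0.00821), TTC19 and BCS1L of complex III (-0.34 and -0.33, adjusted p = 0.00108 and 0.00323) and the copper carrier COX11 of complex IV (-0.35, adjusted p = 0.000585). Of 10 regulators of mitochondrial biogenesis 5 fell and none rose, among them NRF1 itself, at 24.0 ± 0.789 CPM with the drug and 30.0 ± 1.77 CPM without it (-0.32, adjusted p = 0.0117). Of complex II, 1 of 4 genes fell, SDHB (-0.30, adjusted p = 0.0018). Of 6 subunits and carriers that the naming rule misses, 1 fell, the acyl carrier NDUFAB1 (-0.28, adjusted p = 0.00616). The mitochondrially encoded subunits went the other way, with 4 of 13 higher and none lower, MT-ND1 by 0.87 (adjusted p = 1.99e-07) at 2378 ± 79.6 CPM with the drug and 1304 ± 235 CPM without. Radiation alone in E79Q cells raised 8 of the 13 and lowered none, where 12.2% of all genes rose. In untreated cells 6 of the 13 were lower in E79Q than in WT cells and none higher, where 10.1% of all genes were lower. These comparisons share the untreated E79Q libraries. In the difference of drug effects between genotypes, where 7.46% of all genes were positive and 6.83% negative, assembly factors were negative in 1 of 18 cases for complex I, 2 of 6 for complex III, 5 of 23 for complex IV and 1 of 5 for complex V. Biogenesis regulators were negative in 3 of 10 cases, genes of complex II in 0 of 4 and the subunits and carriers outside the naming rule in 1 of 6, and none of these lists had a positive call. Of the mitochondrially encoded subunits 2 of 13 were positive and none negative.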

How the data were processed

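RNA from 24 libraries in 8 groups of 3 was sequenced, and the deposited table holds raw counts per Ensembl gene, with gene names, biotypes and a gene length that was not used to normalise. The authors aligned reads with STAR and counted them with HTSeq on GRCh38, per the submitters' processing notes. Their versions and the strand setting are unknown here. Columns were matched to samples by title, the last 3 under shortened names.

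Counts were scaled by TMM and fitted in edgeR 4.0.16 (limma 3.58.1, R 4.3.3), with 1 mean per group, over 15956 genes that passed filterByExpr of 34983 with any read. The quasi-likelihood test gave 12 comparisons of 2 groups and 4 differences of effects, with Benjamini-Hochberg adjustment over all genes tested. With 3 against 3 libraries, an exact test of 1 gene alone cannot give a p under 0.1. Fold changes are log2, and CPM are counts normalised to library size. The scripts were tested on simulated counts. Main transcripts and bases shared between genes were taken from GENCODE, whose coordinates equalled the deposited ones for all 86 members.

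Values in every library are given for the 3 called members with the smallest adjusted p in each direction of a comparison and no overlap between its groups, and for isoform pairs and ATP5IF1; isoforms that were called nowhere are given as ranges. One gene that the counts include is not reported here. The members and lists were chosen with earlier results of these data known. Alternatives were DESeq2 1.42.0, its scaling, no filter, a replicate block, removal of length and GC trends, leaving out 4 libraries that follow GC, fitting compared groups alone, and leaving out each library.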

Additional observations from a re-analysis of the deposited data

Results flagged for a closer look

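The effect of CB-839 without radiation, taken as E79Q minus WT, differed between genotypes at an adjusted p under 0.05 (edgeR quasi-likelihood, interaction term) for 7 of the 77 subunit genes. UQCRFS1 had -0.42 (adjusted p = 0.00184), UQCR11 -0.60 (adjusted p = 0.00273) and ATP5F1A -0.25 (adjusted p = 0.00791), and these 3 held under each of the 8 other fits and with each library left out. ATP5F1C had -0.21 (adjusted p = 0.0228), NDUFS3 -0.36 (adjusted p = 0.0242) and NDUFB9 -0.26 (adjusted p = 0.0383). NDUFA4L2, at levels near 1 CPM, had a difference of 1.87 (adjusted p = 0.0115). For ATP5F1C the adjusted p was 0.0594 to 0.0737 without library 2 of the unirradiated E79Q cells given CB-839 or library 3 of the unirradiated WT cells given CB-839 or library 1 of untreated WT cells, 1 left out at a time. It was 0.129 with no filter. For NDUFS3 the adjusted p was 0.0557 to 0.0849 without library 3 of the unirradiated E79Q cells given CB-839 or library 3 of the unirradiated WT cells given CB-839 or library 1 of untreated E79Q cells or libraries 1 or 3 of untreated WT cells, 1 left out at a time. It was 0.0501 without the 4 libraries that follow GC. For NDUFB9 the adjusted p was 0.0511 to 0.118 without libraries 2 or 3 of the unirradiated E79Q cells given CB-839 or library 3 of the unirradiated WT cells given CB-839 or libraries 1 or 3 of untreated E79Q cells or libraries 1, 2 or 3 of untreated WT cells, 1 left out at a time. For NDUFA4L2 the adjusted p was 0.0694 without the 4 libraries that follow GC.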

How the results depend on the processing

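None of the 98 called values of single members was reversed under any alternative, 45 were called under all 8 alternatives to the fit, and 22 under these and with each library left out. Counts under other fits, or with a library left out, are given without the share of all genes called in the same fit. A change in such a count is thus not a result about the members. With length and GC trends removed, counts of called members were 8 in place of 3 for E79Q against WT in untreated cells, 4 in place of 1 in irradiated cells, 17 in place of 7 with CB-839 and 8 in place of 2 with both. They were 12 in place of 5 for radiation in WT and 12 in place of 4 in E79Q cells. For CB-839 they were 13 in place of 7 in unirradiated WT, 12 in place of 5 in irradiated WT and 24 in place of 13 in irradiated E79Q cells. For differences of effects they were 15 in place of 7 for CB-839, and 1 in place of 0 both for CB-839 in irradiated cells and for radiation with CB-839.

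Libraries with the same replicate number did not deviate alike from their group means, and whether they were prepared together is not stated. None of 84 same-numbered pairs correlated over 0.1 (-0.175 to 0.0871), and 4 of 24 libraries correlated best with their own number. With the replicate block the count was 0 in place of 1 for E79Q against WT in irradiated cells, 1 in place of 2 with both treatments, and 2 in place of 5 for CB-839 in irradiated WT cells. With trends removed and the block, the counts were 8, 4, 18 and 6 for the 4 genotype comparisons, 10 and 12 for radiation in WT and E79Q cells without the drug, 12, 10 and 24 for CB-839 in unirradiated WT, irradiated WT and irradiated E79Q cells, and 15 for the difference of the CB-839 effect.

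With the compared groups fitted alone, counts were 8, 13, 12 and 0 for genotype in untreated, irradiated, CB-839 and both, 21, 15 and 3 for radiation in WT, in E79Q and in E79Q cells with CB-839, and 11 and 1 for CB-839 in irradiated WT and E79Q cells. Without the 4 libraries that follow GC they were 8 and 5 for genotype in irradiated cells and with both treatments, 20 and 8 for radiation in WT and E79Q cells, 10 for CB-839 in irradiated WT cells, and 1 for the difference of the CB-839 effect in irradiated cells. DESeq2 gave 3 and 12 for genotype in irradiated and in CB-839-treated cells and 9 for CB-839 in irradiated WT cells, and its scaling within edgeR gave 2 and 11 for those genotype comparisons. With no filter the counts were 2 and 1 for genotype in irradiated cells and with both treatments, and 1 and 3 for differences of the CB-839 effect in irradiated cells and of the radiation effect with CB-839. The causes were not tested.

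With 1 library left out at a time, counts ranged from 1 to 3, 0 to 0, 3 to 15 and 0 to 3 for genotype in untreated, irradiated, CB-839 and both, from 2 to 6, 4 to 14, 2 to 5 and 11 to 26 for radiation in WT, WT with CB-839, E79Q and E79Q with CB-839, and from 2 to 13, 0 to 4, 8 to 15 and 5 to 24 for CB-839 in WT, irradiated WT, E79Q and irradiated E79Q cells. They ranged from 0 to 2 for the difference of the radiation effect with CB-839 and from 4 to 14 for that of the CB-839 effect. Depth limits the members near 1 CPM: with CB-839 in unirradiated WT cells the SE of the log2 fold change was 0.356 for NDUFA4L2, against a median of 0.0838 over the 77.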
